A study of Schmidtea polychroa with 132 samples.

Results

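The middle of embryonic development in Schmidtea polychroa, a freshwater planarian, was followed by setting 13 embryos of stage 5 and 16 of stage 6 against 8 embryos of stage 4. These 37 libraries are part of a series of 132, which also holds embryos of stages 1, 2, 3, 7 and 8, 4 libraries labelled yolk and 1 labelled protist. Each library came from a single whole embryo of a laboratory population kept at 20 °C, with no treatment named in the labels, and all groups share this origin. Capsules were opened over 15 days of development and embryos were assigned to a stage at collection, so the day of each embryo is not given. RNA was read by CEL-Seq, in which barcoded transcripts are counted from their 3′ ends, with synthetic spike-in RNAs added. The labels give 10 libraries of stage 4, and 2 of them, replicates 3 and 10, were left out because of reads that are also high in the protist library. Transcripts at least 10 times higher in the protist library than in the mean of the libraries outside the comparison took 55.7% of transcript counts in replicate 3 and 31.1% in replicate 10. In the 8 stage 4 libraries kept, they took between 0.0451% and 2.90%. This share chose the libraries, and it is given as a description.

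Planarian eggs are laid in capsules together with separate yolk cells, and the early embryo builds a temporary pharynx that swallows this yolk. In the middle of development the embryo is a yolk-filled ball with a thin wall of cells, and the temporary organs give way to the definitive pharynx, gut, eyes and nervous system. The transcript pool of a whole embryo at this time therefore mixes ingested yolk, temporary embryonic tissue and the first definitive tissue. In such whole-embryo samples, fewer cells of a type and less RNA per cell cannot be told apart. The files give transcript IDs without gene names, so no function can be attached to the transcripts below.

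Transcript counts in the 37 libraries ranged from 81365 to 1251141, with a median of 533586. The lowest total belonged to stage 4 replicate 5, which also had the 2.90% of protist-high counts named above. Levels are given below as TMM-scaled CPM, library counts set to a common total after edgeR's scaling for composition. Spike-ins served as a check that does not depend on the embryo. None of 56 tested spike-ins was called between stages 5 and 6 together and stage 4 by edgeR's quasi-likelihood test, and 1 had an unadjusted p under 0.05. For stage 6 against stage 4 these counts were 0 and 4. Embryos were treated as independent because no capsule of origin is given, and p-values measure the spread between single embryos.

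The first comparison asked which transcripts differ once stage 4 has passed. With stages 5 and 6 pooled, 1 of 8634 tested transcripts (0.0116%) passed a Benjamini-Hochberg adjusted p under 0.05 in edgeR's quasi-likelihood test, and it fell. At an unadjusted p under 0.05 there were 946 transcripts (11%), 589 higher and 357 lower in the later stages. At an adjusted p under 0.10 there were 24 (0.278%), of which 5 (0.0579%) were higher and 19 (0.22%) lower. The spread between embryos was wide, with a common biological coefficient of variation of 0.747. The count of calls also turned on the libraries and the tool. Without stage 4 replicate 1, 193 transcripts were called, 151 higher and 42 lower, and without replicates 6 or 8 none was. DESeq2 called 119, of which 90 were higher and 29 lower, so the balance of directions was not that of edgeR. With all 10 stage 4 libraries edgeR called 166, 42 higher and 124 lower.

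FW_v1_tr_09372 was the transcript that passed. In the 8 stage 4 embryos its level was 80.1 TMM-scaled CPM at the lowest, 254.9 at the median and 402 at the highest. In stage 5 these values were 17.45, 86.6 and 230.7, and in stage 6 they were 39.7, 88.4 and 149.9. All 29 later embryos lay below the stage 4 median and 8 of them below the lowest stage 4 embryo, so the groups overlapped but were shifted. The mean fell from 261 ± 118 (SD, n = 8) to 95.4 ± 43.5 (SD, n = 29), a difference of -1.50 log2 units (SE 0.26, edgeR adjusted p = 0.00533). By stage, stage 5 differed from stage 4 by -1.40 log2 units (SE 0.31, edgeR adjusted p = 0.426) and stage 6 from stage 5 by -0.19 (SE 0.27, edgeR adjusted p = 0.993). Stage 7 averaged 201 ± 74.8 (SD, n = 16). Without stage 4 replicates 6 or 8, or among libraries above 50% of the median total, the log2 change was -1.36, -1.36 and -1.18 and missed the threshold.

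**Figure D1:**
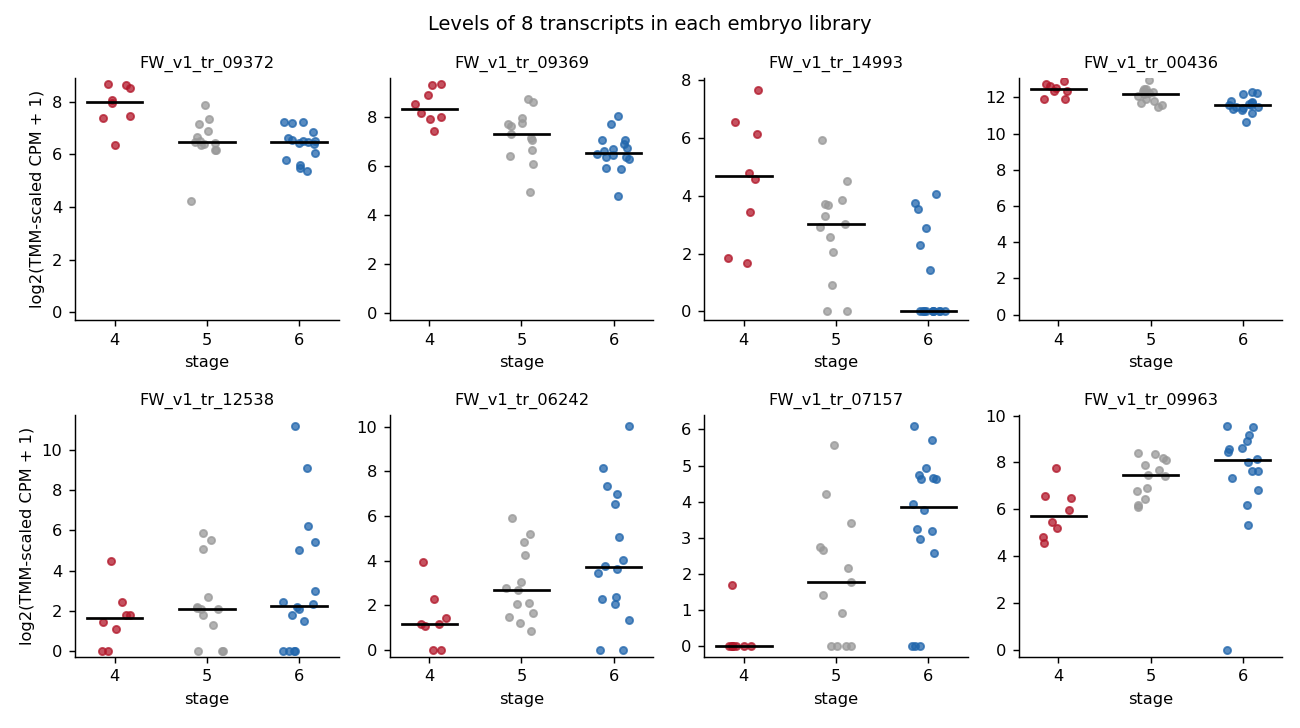
Levels of 8 transcripts in every embryo, as log2(TMM-scaled CPM + 1), with stage on the horizontal axis, 1 point per library and a black bar at the median. The 4 transcripts of the upper row lie lower in stages 5 and 6 than in stage 4 with overlap between stages, and those of the lower row reach their highest levels in stage 6, where the embryos spread widely.

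The step was then resolved by stage in 1 fit of all 3 stages. From stage 4 to stage 5 edgeR's quasi-likelihood test called 0 of 8634 transcripts (0%). Of these, 594 (6.88%) had an unadjusted p under 0.05, 356 higher and 238 lower, and DESeq2 also called 0. From stage 5 to stage 6 edgeR called 1 (0.0116%), with 485 (5.62%) at an unadjusted p under 0.05. The latter share is close to what a threshold of 0.05 gives by itself. From stage 4 to stage 6 edgeR called 35 (0.405%), of which 7 (0.0811%) rose and 28 (0.324%) fell. At an unadjusted p under 0.05 there were 1072 (12.4%). A test of a slope per stage over stages 4, 5 and 6 called 41 (0.475%), 14 (0.162%) rising and 27 (0.313%) falling. The stage 6 comparison and the slope shared 28 calls, 2 higher and 26 lower. Over both of these and the other comparisons, 49 transcripts were called at least once, 19 higher and 30 lower in stage 6 than in stage 4. Of the 49, at least 11 have counts equal within counting noise to another transcript model, so the number of separate genes may be lower. Models with fewer than 500 counts over the 37 libraries were not searched for this. These comparisons share the stage 4, 5 and 6 libraries and are views of the same embryos.

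The counts for stage 6 against stage 4 ranged from 8 to 269 when each stage 4 library was left out in turn. Stage 4 replicate 1 gave the high end, with 198 rises and 71 falls called without it, and all 35 calls were among these 269. The other 7 leave-outs gave between 8 calls without replicate 2 and 22 without replicate 6, and rises numbered at most 1 in each. DESeq2 called 149 rises and 71 falls. The balance turned for the slope too, with 130 rising and 76 falling by DESeq2, 160 and 76 by edgeR with the RNA ratio as a covariate, and 59 and 41 without stage 4 replicate 1.

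The transcripts that fell between stage 4 and stage 6 covered a wide range of abundance. Their mean levels in stage 4 ran from 27.6 to 5610 TMM-scaled CPM with a median of 218.8, and in stage 6 from 2.96 to 3219 with a median of 69.3. The log2 changes of the 28 lay between -4.07 and -0.84, with a median of -1.87. Stage 5 took an intermediate position. At the median, the fitted log2 change to stage 5 was 0.56 of that to stage 6. For 19 of the 28, models with equal counts included, more of the fitted change lay before stage 5 than after it. Both changes share the stage 4 libraries, and the 28 were chosen on the change to stage 6. These fractions are therefore a description, and no transcript was called from stage 4 to stage 5.

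FW_v1_tr_09369 and FW_v1_tr_00436 were chosen as examples after their values were seen. FW_v1_tr_09369 was at 171.4, 325.4 and 648.6 TMM-scaled CPM in the lowest, median and highest of the 8 stage 4 embryos. It was at 29.4, 157.9 and 424.3 in stage 5 and at 26.1, 92.4 and 261.9 in stage 6. Of the 16 stage 6 embryos, 14 lay below the lowest stage 4 embryo. Its log2 change to stage 6 was -1.89 (SE 0.33, edgeR adjusted p = 0.00436) and passed in all 16 alternatives run for it. Outside these stages its mean was 14.0 ± 9.69 over 4 yolk libraries, 78.1 ± 126.5 over 22 of stage 3 and 29.9 ± 30.4 over 16 of stage 7 (SD), so stage 4 held the highest mean.

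FW_v1_tr_00436 was the most abundant of the falls. Its levels were 3813, 5616 and 7631 TMM-scaled CPM at the lowest, median and highest of stage 4, 2861, 4653 and 7819 in stage 5, and 1619, 3081 and 4966 at stage 6. The lowest and the median embryo were lower at each step while the highest was not, and 13 of 16 stage 6 embryos were below the lowest of stage 4. The log2 change to stage 6 was -0.85 (SE 0.17, edgeR adjusted p = 0.0104). FW_v1_tr_11290 has equal counts within counting noise and was called too, so this pair may be 1 signal. The call was lost without stage 4 replicate 2 and with RLE size factors, at -0.79 and -0.73.

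The slope over the 3 stages named FW_v1_tr_14993 and FW_v1_tr_10045 as the steepest falls at 10 CPM or more. FW_v1_tr_14993 stood at 2.22, 24.8 and 203.5 TMM-scaled CPM in stage 4 and at 0, 7.06 and 60.4 in stage 5. In stage 6 the lowest and the median were 0 and the highest 15.9. It had a count in 8 of 8, 11 of 13 and 6 of 16 embryos. Its slope was -2.03 log2 units per stage (SE 0.39, edgeR adjusted p = 0.00779). It was yolk-high, averaging 143 ± 68.2 in yolk (SD, n = 4) and 4.19 ± 6.38 in stage 7 (n = 16). FW_v1_tr_10045 stood at 9.14, 19.2 and 141 in stage 4, at 0, 16.9 and 58.8 in stage 5, and at 0, 4.46 and 15.8 in stage 6. Its slope was -1.56 per stage (SE 0.32, edgeR adjusted p = 0.00779), lost without stage 4 replicate 8 at -1.33. All 16 stage 6 embryos lay below the stage 4 median for both.

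Of the next falls from stage 4 to stage 6 by size, with transcripts already named left out, 1 rested on a single embryo. FW_v1_tr_09118 was at 953.2 TMM-scaled CPM in stage 4 replicate 5, against a stage 4 median of 22.2. In stage 6 its lowest, median and highest levels were 0, 8.50 and 35.7. The log2 change was -3.23 (SE 0.72, edgeR adjusted p = 0.0307) with that library and -0.60 (edgeR adjusted p = 0.767) without it. FW_v1_tr_08110 was at 0, 23.5 and 68.5 in stage 4, at 0, 8.42 and 83.8 in stage 5, and at 0, 0 and 13.3 in stage 6. Its log2 change to stage 6 was -3.05 (SE 0.75, edgeR adjusted p = 0.0452), and 9 of 15 alternatives lost the call, with an adjusted p of up to 0.13.

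The single call between stages 5 and 6 was FW_v1_tr_03275. It was at 4.44, 14.9 and 30.0 TMM-scaled CPM in stage 4, at 4.91, 20.1 and 80.8 in stage 5, and at 0, 0 and 15.9 in stage 6. A count was present in 8 of 8 and 13 of 13 embryos of the first 2 stages and in 7 of 16 of stage 6. Its log2 change from stage 5 to stage 6 was -3.09 (SE 0.58, edgeR adjusted p = 0.0222). In an edgeR fit of stages 5 and 6 alone it was removed by the filter on low counts and not tested, and 0 of 6282 transcripts were called, with 306 at an unadjusted p under 0.05, while DESeq2 on the 3 stages called 7. It is a yolk-high transcript, at 256.6 ± 69.4 in yolk (SD, n = 4), and stage 7 averaged 30.0 ± 30.8 (n = 16).

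The transcripts that rose from stage 4 to stage 6 were scarce in stage 4. The 7 had mean levels from 0.278 to 73.6 TMM-scaled CPM in stage 4, with a median of 5.10, and from 18.8 to 310.9 in stage 6, with a median of 62.0. Their stage 5 means, from 7.20 to 189.3 with a median of 40.6, lay between both. At the median, the fitted log2 change to stage 5 was 0.78 of that to stage 6, and the lowest of the 7 fractions was 0.64. For the 14 rises of the slope the median fraction was 0.43 and the lowest 0.26. For 5 of the 14 more of the fitted change lay before stage 5 than after it. These fractions are a description too, and they differed with the comparison that chose the transcripts. In stage 7 the means of the 7 ran from 15.2 to 1205, with a median of 86.0.

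Among the 7 rises called from stage 4 to stage 6, FW_v1_tr_07157 and FW_v1_tr_03191 had the largest fitted changes. FW_v1_tr_07157 had 2 counts in all over the 8 stage 4 embryos, both in replicate 1, and 147 over the 16 of stage 6. It was found in 1 of 8, 9 of 13 and 13 of 16 embryos of stages 4, 5 and 6, and 13 stage 6 embryos exceeded the highest of stage 4. Per total count the ratio was 48.1 with an exact 95% counting interval of 13.1 to 401.3, which leaves out the spread between embryos, and the edgeR adjusted p was 0.0155. The call was lost without stage 4 replicates 2 or 7, at an adjusted p of up to 0.0599. FW_v1_tr_03191 was at 0, 0.989 and 2.47 TMM-scaled CPM in stage 4, at 0, 7.13 and 61.8 in stage 5, and at 0, 25.6 and 213.4 in stage 6. Its log2 change was 4.83 (SE 1.10, edgeR adjusted p = 0.0338), lost in 7 of 16 alternatives. It had no count in 22 stage 3 libraries and 4 of yolk, and stage 7 averaged 46.0 ± 20.8 (SD, n = 16).

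FW_v1_tr_09963, chosen after its values were seen, was the rise with the highest level in stage 4. The lowest, median and highest of stage 4 were 22.9, 51.9 and 215.8 TMM-scaled CPM. Those of stage 5 were 66.8, 177.4 and 335.1, and those of stage 6 were 0, 272.1 and 743.6. All 13 stage 5 embryos and 14 of 16 stage 6 embryos exceeded the stage 4 median. The log2 change to stage 6 was 2.01 (SE 0.49, edgeR adjusted p = 0.0435), and 10 of 16 alternatives lost the call. Stage 3 averaged 41.9 ± 49.0 (SD, n = 22), stage 7 averaged 726.7 ± 187.7 (n = 16) and stage 8 averaged 1074 ± 303 (n = 15).

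The steepest rises by slope came late and unevenly. FW_v1_tr_12538 was at 0, 2.105 and 21.4 TMM-scaled CPM at the lowest, median and highest of stage 4, at 0, 3.24 and 58.2 in stage 5, and at 0, 3.77 and 2338 in stage 6. The medians of the 3 stages were close together, and 5 of 16 stage 6 embryos exceeded the highest of stage 4. The slope was 3.38 log2 units per stage (SE 0.71, edgeR adjusted p = 0.0194). Without stage 6 replicate 6, which held the 2338, the slope was 2.06 (edgeR adjusted p = 0.109). FW_v1_tr_06242 was at 0, 1.24 and 14.5 in stage 4, at 0.810, 5.41 and 58.7 in stage 5, and at 0, 12.0 and 1033 in stage 6. Its slope was 2.60 per stage (SE 0.51, edgeR adjusted p = 0.00779), and 1.90 without that embryo (edgeR adjusted p = 0.0328). In stage 7 the pair averaged 1639 ± 646.1 and 1421 ± 406.1 (SD, n = 16), and in stage 8 875.2 ± 491.6 and 1984 ± 469.7 (n = 15).

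The called transcripts were placed in the rest of development with libraries that had no part in the calls. Transcripts were named yolk-high or stage-8-high from a comparison of 4 yolk with 15 stage 8 libraries, in which edgeR called 2203 of 11073 (19.9%) higher in yolk and 4698 (42.4%) higher in stage 8. Of the 8634 transcripts tested here, 7841 could be placed, 1683 as yolk-high, 2982 as stage-8-high and 3176 as neither. Of the 19 higher calls 18 could be placed, and 17 were stage-8-high and none yolk-high, against 38.0% and 21.5% of all placed. Of the 30 lower calls 25 could be placed, with 6 yolk-high (24.0%), 2 stage-8-high and 17 neither. Counted by transcript model, the yolk-high share of the falls was thus near that of all placed transcripts. The falls found to have counts equal to another called fall were all among the 17. Models with fewer than 500 counts over the 37 libraries were not searched. How counting each such group once would change this share is therefore not known.

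The falls had their highest mean level in stage 4 in 23 of 30 cases, over yolk and stages 1 to 8, against 1356 of 8634 among all tested. Choosing transcripts for a fall after stage 4 favours this count, so it is a description. Yolk held the highest mean for 4 of the 30, against 1462 of all tested. Of the 19 higher calls, 8 were highest on average in stage 8, 7 in stage 7 and 3 in stage 6, and the remaining protist-high call was highest in stage 3. Among all 8634 tested, 1376, 1388 and 1091 were highest in stages 8, 7 and 6. Choosing transcripts higher in stage 6 than in stage 4 works against a maximum in stage 4, so these counts are a description too. Yolk held the lowest mean for 12 of the 19, against 2280 of all tested. From stage 3 to stage 7 the median log2 difference of mean levels was 4.45 for the higher calls, -0.45 for the lower calls and 0.64 for all tested. Stage 7 was above stage 3 for 18 of 19 higher calls, 8 of 30 lower calls and 5460 of 8634 tested. These differences between outside stages were not matched for depth and were not tested.

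**Figure D2:**
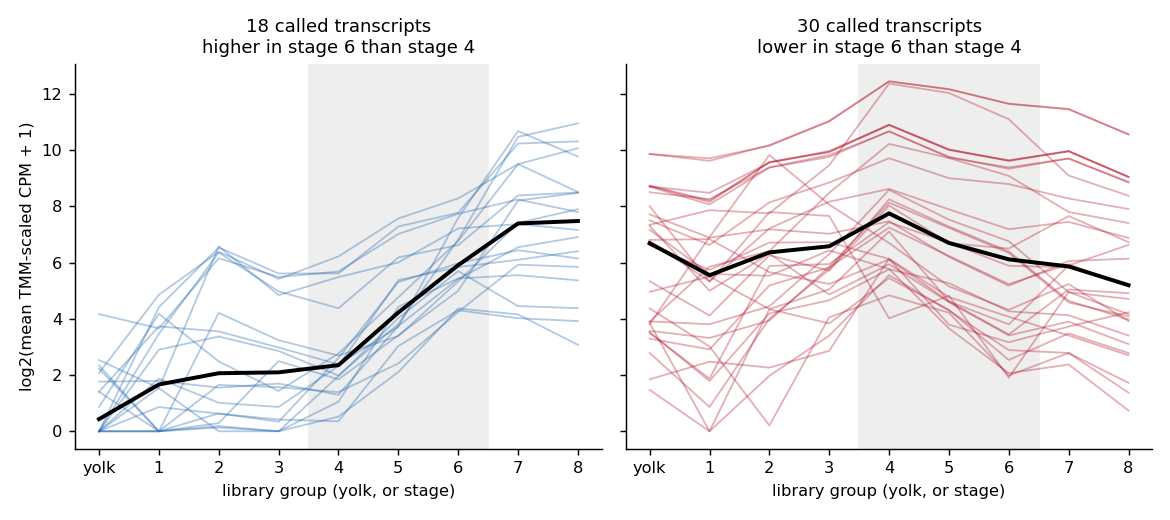
Mean level of each called transcript, as log2(mean TMM-scaled CPM + 1), across yolk and stages 1 to 8, with stages 4 to 6 shaded and the median in black. The 18 higher transcripts that are not protist-high have their highest mean in stage 6, 7 or 8, while the 30 lower transcripts form a maximum in stage 4 in 23 cases.

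The same outside sets were used to describe the direction of the fitted differences, called or not. Among 2982 stage-8-high transcripts the median log2 difference of stage 6 from stage 4 was 0.27, and 67.0% were higher. Among 1683 yolk-high transcripts it was -0.18, and 37.0% were higher. Over all 8634 it was 0.06, and 54.1% were higher, and RLE size factors moved this median to 0.157. From stage 4 to stage 5 the medians were 0.22 and -0.05, with 0.06 for all tested. From stage 5 to stage 6 they were 0.09 and -0.14, with 0.01 for all. Transcripts are not independent of each other, and no test was made of these medians.

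Transcripts that differ between stages 7 and 8 gave a further view, since neither stage entered the comparison. Between these, edgeR called 415 of 8911 transcripts (4.66%) higher and 138 (1.55%) lower in stage 8. The 213 tested transcripts that are higher in stage 8 than in stage 7 had a median log2 difference of 0.55 between stage 6 and stage 4, and 175 of them (82.2%) were higher in stage 6. The 131 that are higher in stage 7 had a median of 0.06, the same as all tested transcripts, and 73 were higher. Of all 7841 placed transcripts, 38.0% were stage-8-high and 21.5% yolk-high. At an unadjusted edgeR p under 0.05, 633 transcripts were higher in stage 6 than in stage 4. Of their 610 placed, 445 were stage-8-high (73%) and 27 yolk-high (4.43%). Among the 439 lower at that p, 141 of 349 placed were yolk-high (40.4%) and 60 stage-8-high (17.2%). These are not calls, and they are given only to show where the differences at that p lie.

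**Figure D3:**
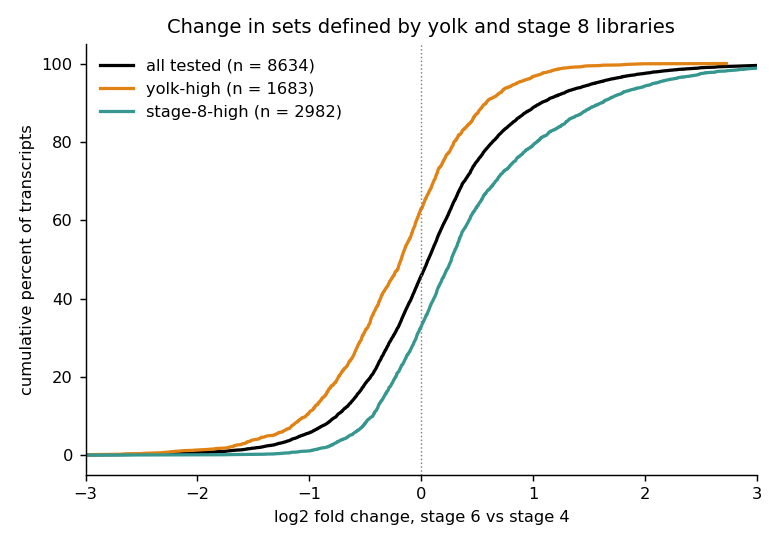
Cumulative percent of transcripts against the log2 fold change of stage 6 relative to stage 4, for all 8634 tested, the 1683 yolk-high and the 2982 stage-8-high transcripts. The stage-8-high curve lies to the right of the curve for all tested and the yolk-high curve to its left, with medians of 0.27, 0.06 and -0.18.

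Summed over each set, the shares of an embryo's counts moved little against the spread between embryos. The yolk-high share was 22.7% ± 4.58 for stage 4 embryos (SD, n = 8), 21.8% ± 5.99 for those of stage 5 (n = 13) and 20.9% ± 4.50 for those of stage 6 (n = 16). The pooled later stages differed from stage 4 by -1.38 percentage points (exact permutation test, two-sided, p = 0.499). The stage-8-high share was 40.1% ± 5.46, 43.4% ± 5.33 and 44.2% ± 5.54. It differed by 3.73 points, with 22 of 29 later embryos above the stage 4 mean (exact permutation test, p = 0.0908, adjusted 0.297). In yolk libraries these shares were 78.5% and 5.59%, and in stage 7 they were 11.7% and 60.5%, with the middle stages between both. The same yolk libraries had named the sets, so their extreme shares follow in part from that choice and are a description. Adjustment here and below was by Benjamini-Hochberg over 36 tests, 9 measures in 4 comparisons, and none of the 36 passed.

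No difference passed in the amount of RNA per embryo either. The log2 ratio of transcript to spike-in counts, a measure of embryo RNA if each tube received equal spike-in, was 3.25 ± 1.19 for stage 4 (SD, n = 8) and 3.21 ± 0.82 for the 29 later embryos. Pooled, the difference was -0.04 (exact permutation test, p = 0.903). The number of transcripts detected at a common depth of 81365 counts was 8020 ± 1045 in stage 4 and 8256 ± 1002 in the later stages (exact permutation test, p = 0.568). The 10 highest transcripts took 6.31% ± 0.544 of counts in stage 4 and 6.03% ± 0.997 in the later stages (exact permutation test, p = 0.449). By stage they took 6.42% ± 1.29 in stage 5 and 5.72% ± 0.542 in stage 6. Stage 6 against stage 4 had an exact permutation p of 0.0209 that became 0.143 after adjustment. The share of aligned reads was 34.2% ± 5.75 and 35.3% ± 4.91 in stage 4 and the later stages.

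None of the 4 most abundant transcripts was called. The pooled comparison called 1 of all 8634 tested (0.0116%), so the absence of a call among 4 says nothing particular about abundant transcripts. FW_v1_tr_01354 was at 3120, 5915 and 9560 TMM-scaled CPM at the lowest, median and highest of stage 4, and the 29 later embryos averaged 6152 ± 2517 (SD). FW_v1_tr_13310 averaged 5218 ± 1045 in stage 4 and 5482 ± 1068 later, and FW_v1_tr_06443 averaged 5544 ± 1846 and 5367 ± 1985. For these the ranges overlapped throughout, and the log2 changes were -0.06 (SE 0.21), 0.03 (SE 0.13) and -0.09 (SE 0.21), with a sign that turned under some alternatives. FW_v1_tr_01992 averaged 4116 ± 1210 in stage 4 and 5939 ± 2463 later, and 12 of 13 stage 5 and 13 of 16 stage 6 embryos exceeded its stage 4 median. Its log2 change of 0.49 (SE 0.21) did not pass (edgeR adjusted p = 0.392).

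Whole profiles differed between stage 4 and the later stages, by a test that answers to unequal spread as well as to a shift. The energy distance, computed from 1 minus Spearman's rho between libraries at 81365 counts each, is 0 on average when both groups come from 1 population. It was 0.0444 between stage 4 and the 29 later embryos (exact permutation test over 38608020 splits, p = 0.00797, Benjamini-Hochberg adjusted p = 0.0272 over 4 comparisons). Stage 5 alone lay 0.0313 from stage 4 and stage 6 alone 0.0561 (exact permutation tests, both with an adjusted p of 0.0272). Stages 5 and 6 lay 0.00204 apart, which did not pass (permutation test, p = 0.274). Left out one at a time, the stage 4 libraries gave pooled distances from 0.0363 to 0.0651, all with an exact permutation p of at most 0.0199. Without the protist-high transcripts the pooled distance was 0.045.

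Among the libraries kept, stage 4 embryos were more alike among themselves than stage 6 embryos were, as a description. Stage 4 libraries with a high protist-high share had been left out, and no library of stage 5 or 6 was. The medians below do not include the libraries left out, so the part of this choice in the stage 4 value was not tested. The median distance of a pair within stages 4, 5 and 6 was 0.392, 0.413 and 0.48. It was 0.421 between stages 4 and 5, 0.466 between stages 4 and 6 and 0.451 between stages 5 and 6. Pairs across stages 4 and 6 were thus no farther apart at the median than pairs within stage 6.

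By mean distance, 7 of 8 stage 4 embryos were nearest to stage 4 and 1, replicate 1, to stage 5. Of the 13 stage 5 embryos, 10 were nearest to stage 5 and 3 to stage 4. Of the 16 stage 6 embryos, 11 were nearest to stage 5, 5 to stage 4 (replicates 3, 5, 11, 14 and 15) and none to their own stage. For every embryo of the comparison, the mean distance to stage 6 was larger than that to stage 5. Pairs within stage 6 were the farthest apart at the median, and such spread enlarges a mean distance. No embryo of any stage was nearest to stage 6, so this count does not show where stage 6 embryos lie. The 5 stage 6 embryos nearest to stage 4 had transcript totals of 101952 to 395289 and 5274 to 7305 transcripts detected at the common depth. The other 11 had totals of 174530 to 1068561 and 7853 to 9387 detected. The log2 transcript to spike-in ratio was 1.64 to 2.47 in the 5 and 2.18 to 4.596 in the 11. The detected numbers of the 5 and the 11 did not overlap, which is a description, since the positions were read from the same profiles. The part of RNA content and depth in these positions was not tested.

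Likeness to earlier and later stages was read from Spearman's rho of each embryo with the mean profile of outside libraries. With stage 3 it averaged 0.541 ± 0.0682 over the 8 stage 4 embryos, 0.466 ± 0.0769 over those of stage 5 and 0.426 ± 0.103 over those of stage 6 (SD). Pooled, rho was lower by 0.0973 in the later embryos, 6 of 29 of which lay above the stage 4 mean (exact permutation test, p = 0.0091, adjusted 0.125). With stage 7 it was 0.413 ± 0.0864, 0.505 ± 0.0904 and 0.506 ± 0.124, and 22 of 29 later embryos were above the stage 4 mean (exact permutation test, p = 0.0336, adjusted 0.143). With yolk it was 0.308 ± 0.0531, 0.268 ± 0.0666 and 0.231 ± 0.0614 (pooled exact permutation test, p = 0.0214, adjusted 0.143). These values ran in stage order for stage 3 and yolk, and none of them passed after adjustment.

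**Figure D4:**
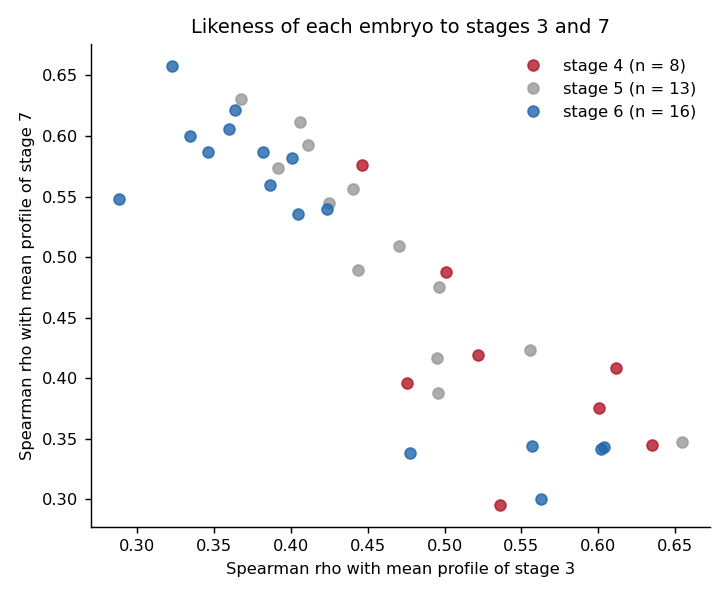
Spearman's rho of each of the 37 embryos with the mean profile of stage 3 (horizontal) and of stage 7 (vertical), coloured by stage. Stage 4 embryos average 0.541 and 0.413, stage 6 embryos 0.426 and 0.506, and the 3 stages overlap on both axes.

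The called transcripts, summed within each embryo, show how single embryos lie along the change. These sums use the transcripts chosen from the same libraries and describe the embryos only. The 18 rising transcripts that are not protist-high summed to 146.2, 221.2 and 744.1 TMM-scaled CPM at the lowest, median and highest of stage 4. The sums were 213, 816.4 and 1637 in stage 5 and 269.8, 1361 and 6999 in stage 6. The 30 falling transcripts, models with equal counts included, summed to 22610, 31860 and 35640 in stage 4, to 11410, 20150 and 38500 in stage 5, and to 8647, 13445 and 19860 in stage 6. Every stage 6 embryo was below every stage 4 embryo in the falling sum, whereas the rising sums overlapped.

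Stage 4 replicate 1 stood apart within its stage in the rising sum. It had counts for all 18 rising transcripts, a rising sum of 744.1 and the lowest falling sum of stage 4, 22610. The other 7 stage 4 embryos had rising sums of 146.2 to 293.4 and falling sums of 25500 to 35640. It was also the stage 4 embryo nearest to stage 5, with a log2 transcript to spike-in ratio of 4.73 and 9528 detected transcripts, both the highest of stage 4. In stage 6, replicate 6 had the highest rising sum, 6999, and without it 24 transcripts were called between stages 6 and 4, 3 higher and 21 lower.

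**Figure D5:**
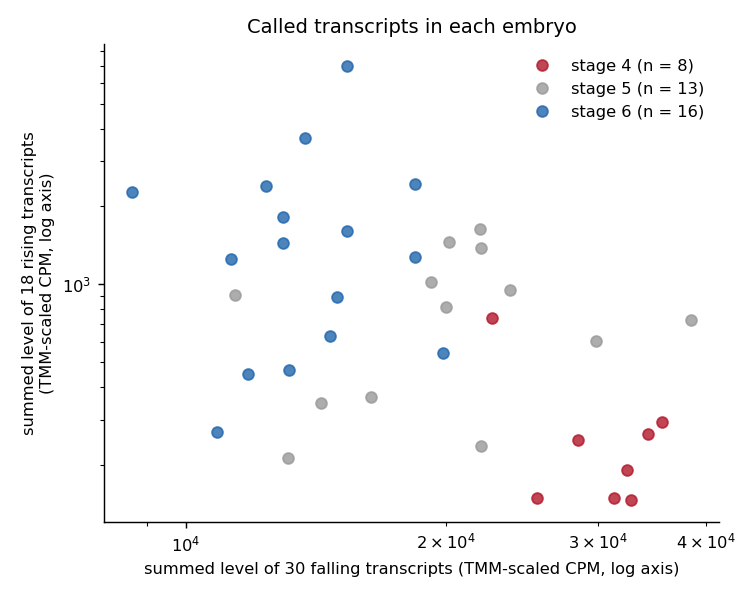
Summed level of the 30 falling transcripts (horizontal) and of the 18 rising transcripts (vertical) in each of the 37 embryos, in TMM-scaled CPM on log axes. Stage 6 embryos lie at falling sums of 8647 to 19860, below all stage 4 embryos, and stage 4 replicate 1 lies above the other stage 4 embryos at a rising sum of 744.1.

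Transcripts high in the protist library remained a small share of the 37 libraries. Their largest shares were 2.90% in stage 4 replicate 5 and 2.21% in stage 6 replicate 13. The other stage 4 libraries kept held at most 0.164%, and the medians of stages 4, 5 and 6 were 0.104%, 0.0904% and 0.160%. The 42 protist-high transcripts that were tested had a median log2 difference of -1.43 from stage 4 to stage 5, where 5 of 42 were higher, and of 1.62 from stage 5 to stage 6, where 39 of 42 were higher. The part of single libraries in these medians was not tested, and the 42 are not independent of each other. Of the calls, 1 was among them, FW_v1_tr_03899, a rise of the slope. Without these transcripts edgeR called 35 transcripts between stages 6 and 4, all of them among the 35 above, and 39 for the slope.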

How the data were processed

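CEL-Seq libraries of single Schmidtea polychroa embryos were compared across stages 4 to 6. The authors deposited raw counts, whole numbers with no normalization, for transcript models, spike-ins and 5 counters of unassigned reads. The submitters' processing notes name CASAVA 1.8, Bowtie2 2.1.0 and HTSeq 0.5.4p3, with no roles. The build named there is of Drosophila, so no coordinates are given, and strand and molecular identifiers are not given in the sources used here. If reads were not collapsed by molecule, counting intervals are too narrow, and they cover counting error only. Reads counted as not aligned took 56.0% to 78.9% of a library and reads in no feature 2.08% to 4.47%, and both stayed out of library sizes.

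Transcript models of the 37 libraries were tested on counts as deposited, by the robust quasi-likelihood test of edgeR 4.0.16 (R 4.3.3) after filterByExpr and TMM scaling, at a Benjamini-Hochberg adjusted p under 0.05. Stages 5, 6 and their contrasts came from 1 fit of 3 stages, and the slope from stage as a number. DESeq2 1.42.0 was an alternative. Each standard error is the log2 change over the square root of F. Library measures and energy distances were tested by counting every split of the samples, or with 100000 permutations for stage 6 against stage 5, two-sided for means. The scripts were tested on simulated data. Levels use 1 set of TMM factors over all libraries except stage 1 replicate 1, whose total was under 5% of the median.

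Transcripts are named as at most 2 that rose and 2 that fell per comparison, with the largest log2 change among calls with at least 10 CPM in the higher group and a count in 50% of its libraries, not protist-high and not named already, plus the 4 of highest mean level. The rule was written for the pooled comparison, the slope and stage 6 against stage 5. It was extended to stage 6 against stage 4 after the values were seen, and 3 further transcripts were chosen after their values were seen. The libraries, the sets and the comparisons were chosen with earlier results of these data known. Replicate numbers follow the order of deposition.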

Additional observations from a re-analysis of the deposited data

Results flagged for a closer look

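In stage 4, replicate 5 held 2.90% of its counts in protist-high transcripts, far above the next of the 8 libraries. Its levels of 3 transcripts were also far above the other stage 4 libraries, at 21.4 TMM-scaled CPM for FW_v1_tr_12538, 203.5 for FW_v1_tr_14993 and 953.2 for FW_v1_tr_09118. Replicate 1 was far above the other stage 4 libraries for FW_v1_tr_06242 at 14.5, FW_v1_tr_07157 at 2.22 and FW_v1_tr_09963 at 215.8. All 3 of these are called rises. The 21.4 of FW_v1_tr_12538 was 2 counts in the library of lowest total. Replicates 2, 4 and 7 had 2 counts each as well, and replicate 9 had 4. The 2.22 of FW_v1_tr_07157 was 2 counts, with none in the other stage 4 libraries. Of 29 measures and transcripts examined in the 8 stage 4 libraries by Dixon's criterion, 7 had an outlying library. Chance gives about 1 in 20 for normally distributed values, which levels resting on few counts are not, and the transcripts are not independent of each other. The libraries of stages 5 and 6, with more than 10 in each, were not examined in this way.

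Outside the comparison, stage 4 replicate 3 held 55.7% and replicate 10 held 31.1% of counts in protist-high transcripts. The part of these reads in the counts of calls with all 10 stage 4 libraries was not tested.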

How the results depend on the processing

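The pooled comparison gave 1 call. It gave 29 with no filter on low counts (2 higher, 27 lower), 119 with DESeq2, 166 with all 10 stage 4 libraries, 84 with the RNA ratio as a covariate (59 higher, 25 lower), 4 with stages 5 and 6 weighted equally, 24 at an adjusted p under 0.10, and 0 to 193 without each stage 4 library in turn. Replicates 1 and 5 raised it when left out, to 193 and 5, and replicates 6 and 8 brought it to 0 (805 and 735 at an unadjusted p under 0.05). Stage 5 against stage 4 gave 30 calls with all 10 stage 4 libraries (1 higher, 29 lower). Stage 6 against stage 4 gave 35, against 220 with DESeq2, 222 with all 10 libraries (74 higher, 148 lower), 11 with only the 2 stages compared, 272 with the covariate (187 higher, 85 lower), 76 with libraries over 50% of the median total (35 higher, 41 lower), 15 with RLE size factors (2 higher, 13 lower), and 8 to 269 leaving out stage 4 libraries. Left out singly, replicates 1, 2, 4, 5, 6, 7, 8 and 9 gave 269, 8, 17, 19, 22, 12, 15 and 17. Stage 6 against stage 5 gave 0 with only the 2 stages (306 at an unadjusted p under 0.05) and 7 with DESeq2. The slope gave 41, against 206 with DESeq2 (130 higher, 76 lower), 211 with all 10 libraries (62 higher, 149 lower), 236 with the covariate (160 higher, 76 lower), 182 with libraries over 50% of the median total (115 higher, 67 lower), and 17 to 100 leaving out stage 4 libraries, of which replicates 1, 2, 4 and 7 moved it most, to 100, 18, 23 and 17. The cause of these movements was not tested. Leaving out libraries also changed how many transcripts were tested.

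The log2 transcript to spike-in ratio differed by 0.222 with all 10 stage 4 libraries in place of -0.0444. Among 258 refits of 17 named transcripts, 210 stayed on their side of the threshold, 40 lost the call and 8 changed sign. The sign changes were FW_v1_tr_01354 at 0.01 with DESeq2, 0.01 with RLE size factors and 0.04 and 0.05 without stage 4 replicates 7 and 9, FW_v1_tr_13310 at -0.02 with all 10 libraries and -0.04 and -0.01 without replicates 5 and 8, and FW_v1_tr_06443 at 0.02 without replicate 8. Leaving out stage 4 libraries gave -0.16 to 0.05 for FW_v1_tr_01354 and -0.18 to 0.02 for FW_v1_tr_06443. No call rested on any of these. The pooled energy distance kept an unadjusted permutation p of at most 0.0199 in each alternative run. Alternatives for stage 6 against stage 4 and the slope other than DESeq2, all 10 libraries and the 2 stages alone, and those without stage 6 replicate 6 or at an adjusted p under 0.10, were chosen after seeing the data. No paired analysis was possible because the replicate numbers follow the order of deposition and the labels pair no embryos.

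The comparison holds 8 stage 4 embryos at a coefficient of variation of 0.747 between embryos, and a transcript that was not called is not shown to be unchanged, least of all a scarce one. Whether embryos came from the same capsule is not given.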
